A study of Homo sapiens with 18 samples.

Results

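Interferon-stimulated genes are the genes that cells switch on when an interferon binds its receptor, and 52 of them were followed here through the response of 3 acute myeloid leukaemia lines to inhibition of the phosphatase SHP2. The 52 were chosen by name, as genes known for induction by interferon, and each was matched by its Ensembl ID to 1 of the 40184 genes measured. The RIG-I gene was carried under the symbol DDX58. The lines were Molm-14 and MV4-11, both labelled with the FLT3-ITD genotype (an internal tandem duplication that keeps the receptor kinase FLT3 active), and SKNO-1, labelled KIT N822K (an activating substitution in the receptor kinase KIT). Each line received DMSO, the vehicle, or RMC-4550, an allosteric SHP2 inhibitor, at 500 nM for 24 h. Every group held 3 replicates, which gave 6 groups and 18 libraries. Molm-14 and MV4-11 grew in serum-supplemented RPMI, whereas the SKNO-1 medium also held GM-CSF at 10 ng/mL, so line, genotype and growth factor cannot be told apart in any comparison with SKNO-1. Each line stands for 1 donor. The labels call the replicates biological without naming separate passages, so p-values measure only the spread between these cultures.

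In the textbook pathway, type I interferon brings together the kinases JAK1 and TYK2, which phosphorylate STAT proteins. STAT2 and IRF9 are parts of the factor ISGF3, which binds the interferon-stimulated response element (ISRE) in target promoters. The products block viral entry, sense or degrade foreign RNA, attach the ubiquitin-like protein ISG15 to other proteins, and in part feed back on the pathway. SHP2, encoded by PTPN11, passes signals from receptor kinases such as FLT3 and KIT to RAS and ERK, and it has also been described as a phosphatase acting on STAT proteins.

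Many, but not all, of the promoters of these genes carry the letters of the element by which the family is usually recognised. A few promoters are printed so that these letters can be seen. RefSeq promoters (GRCh38.p14) were matched for 43 of the 52 members, and the first listed promoter was taken for each. The letters GAAA, any 2 bases and GAAA again, searched on both strands as a plain form of the ISRE, were found in 27 of the 43 (62.8%) within a window of 300 bases, from 250 before to 50 after the start. The share over all 35116 RefSeq promoters of that length was 3.57%. The shorter letters TTCNNNGAA, a plain form of the STAT-binding GAS element that reads the same on both strands, were found in 9 of the 43 (20.9%), against 7.66% of all promoters. ISRE and GAS matches can overlap each other, and matches were counted wherever they lay.

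Below are the 200 bases before the start, 5′ to 3′ in the direction of the gene, for the 5 members with the largest mean change among those called higher in all 3 lines. Capitals mark bases within an ISRE match on either strand, read as TTTC, 2 bases and TTTC where it lies on the other one. They lie at chr1:27672193-27672392, minus strand (IFI6), chr2:6865685-6865884, plus strand (RSAD2), chr7:93148386-93148585, minus strand (SAMD9L), chr3:122564785-122564984, minus strand (PARP9) and chr1:1013297-1013496, plus strand (ISG15).
IFI6: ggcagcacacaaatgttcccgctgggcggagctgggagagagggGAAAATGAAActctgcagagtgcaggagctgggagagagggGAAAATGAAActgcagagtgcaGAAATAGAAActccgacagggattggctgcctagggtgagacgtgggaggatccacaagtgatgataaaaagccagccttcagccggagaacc
RSAD2: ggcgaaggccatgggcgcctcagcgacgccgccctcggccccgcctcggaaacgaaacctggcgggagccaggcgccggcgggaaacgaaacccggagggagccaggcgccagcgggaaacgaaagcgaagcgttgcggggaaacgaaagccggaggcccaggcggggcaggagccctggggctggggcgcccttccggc
SAMD9L: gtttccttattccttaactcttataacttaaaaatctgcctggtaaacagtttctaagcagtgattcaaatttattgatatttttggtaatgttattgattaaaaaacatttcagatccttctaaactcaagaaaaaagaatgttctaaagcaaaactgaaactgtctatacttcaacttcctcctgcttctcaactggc
PARP9: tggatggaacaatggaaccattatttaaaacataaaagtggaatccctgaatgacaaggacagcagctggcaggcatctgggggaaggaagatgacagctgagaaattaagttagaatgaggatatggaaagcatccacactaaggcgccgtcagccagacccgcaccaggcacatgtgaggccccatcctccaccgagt
ISG15: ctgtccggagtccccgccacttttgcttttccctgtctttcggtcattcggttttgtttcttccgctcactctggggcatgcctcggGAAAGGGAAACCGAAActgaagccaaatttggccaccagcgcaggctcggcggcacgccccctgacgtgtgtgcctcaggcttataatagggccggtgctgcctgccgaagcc

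IFI6 held 3 separate matches, and ISG15 held 2 that overlap, which is why its capitals form an unbroken run. RSAD2, SAMD9L and PARP9 held none of these letters in the window, although all 3 genes were called higher in every line. The RSAD2 sequence does repeat GAAA, a single base and GAAA, which the search did not count. The next 3 promoters are shown for contrast, since their genes were called in no line: NMI at chr2:151289669-151289868, minus strand, GBP4 at chr1:89198943-89199142, minus strand, and IFI27 at chr14:94110536-94110735, plus strand. In GBP4 the match runs across the start, so only its 5′ end is in capitals.
NMI: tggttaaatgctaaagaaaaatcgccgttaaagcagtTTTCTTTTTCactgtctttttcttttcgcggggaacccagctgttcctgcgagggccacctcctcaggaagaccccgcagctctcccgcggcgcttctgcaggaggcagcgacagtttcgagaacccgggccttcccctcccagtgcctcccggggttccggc
GBP4: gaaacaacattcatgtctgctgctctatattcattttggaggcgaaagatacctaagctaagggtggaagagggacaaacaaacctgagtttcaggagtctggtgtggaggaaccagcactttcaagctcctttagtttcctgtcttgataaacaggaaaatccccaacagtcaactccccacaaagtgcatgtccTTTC
IFI27: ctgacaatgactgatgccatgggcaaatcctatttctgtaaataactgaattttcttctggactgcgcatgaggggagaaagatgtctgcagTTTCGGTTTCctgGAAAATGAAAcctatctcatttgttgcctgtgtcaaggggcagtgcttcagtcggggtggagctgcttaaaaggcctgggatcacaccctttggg

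**Figure D1:**
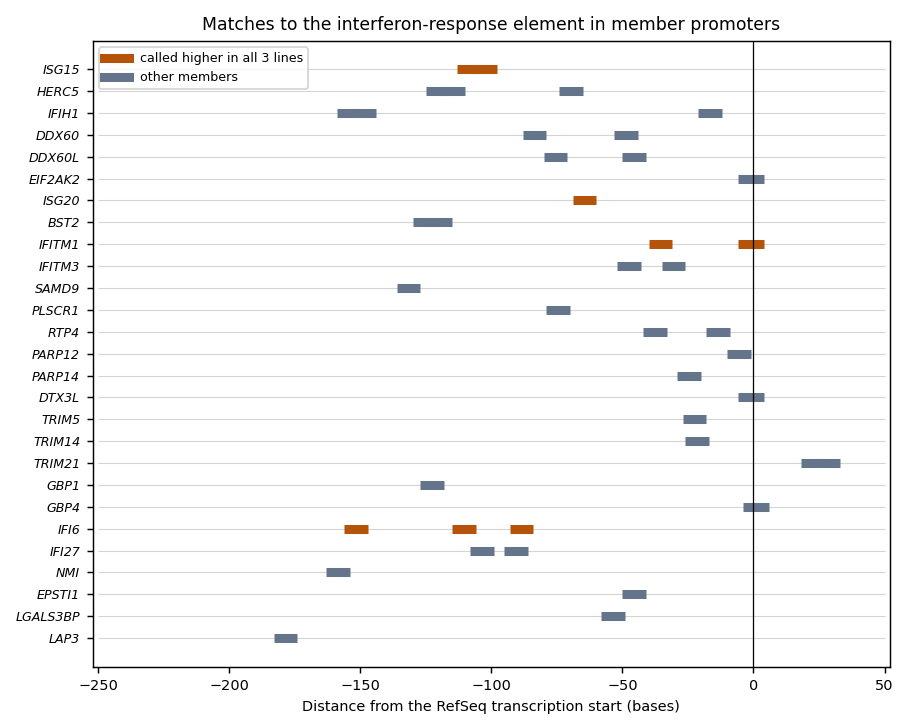
Positions of ISRE matches in the 27 member promoters that hold one (y axis, 1 line per member), as distance in bases from the RefSeq start (x axis), with members called higher in all 3 lines in orange and the others in grey. The 4 orange members are ISG15, ISG20, IFITM1 and IFI6.

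Members with and without the letters are set side by side here as a description, without a test. Of the members with ISRE letters, 4 of the 23 tested in Molm-14 were called higher, 22 of 26 in MV4-11 and 20 of 26 in SKNO-1. Of those without, 7 of 16, 16 of 16 and 11 of 16 were called higher. The median log2 change was 0.07, 1.08 and 0.70 with the letters and 0.26, 1.29 and 0.88 without, in the same order of lines. A match describes letters and not a bound site, and a window without a match says nothing about factor binding.

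The 18 libraries held 17434810 to 19959917 reads, recovered as whole numbers from the deposited log2 values. Levels are given as CPM, which divides reads by each library's total after the authors' scaling. Summed over 7 myeloid markers, the level was 1196 to 1224 CPM with DMSO and 1531 to 1708 CPM with the drug in Molm-14, 1169.9 to 1326 and 1271 to 1389 CPM in MV4-11, and 1325 to 1367 and 1510.4 to 1671 CPM in SKNO-1. In Molm-14 the means of CSF3R, SPI1, PTPRC and CEBPA were higher with the drug, and those of CD33, ITGAM and MPO were lower. MPO averaged 317 CPM in DMSO SKNO-1, against 3.58 CPM in DMSO Molm-14 and 1.44 CPM in DMSO MV4-11. The part of these marker changes in the members' values was not tested. RUNX1T1, a partner in the RUNX1-RUNX1T1 fusion known from SKNO-1, averaged 13.8 CPM in DMSO SKNO-1 and at most 0.017 CPM in any group of the other lines. Of 6 markers of other cell types, CD3E of T cells and EPCAM of epithelium were at or near 0, and PECAM1, which myeloid cells also express, was the highest, with group means of 109 to 192 CPM. In 4 libraries mitochondrial genes took over 10% of reads: replicate 2 of treated Molm-14, replicates 1 and 3 of DMSO MV4-11 and replicate 1 of treated MV4-11. The other 14 held 5.07% to 7.02%. The member calls gained or lost without these 4 libraries are named below. Because cultures were sequenced in bulk, a change in every cell and a change in some of the cells cannot be told apart.

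RMC-4550 raised most of the interferon-stimulated genes in MV4-11 and SKNO-1 and a smaller set in Molm-14. A gene was tested in a line where at least 3 of its 6 libraries held at least 1 CPM, which kept 51 members for MV4-11, 50 for SKNO-1 and 48 for Molm-14. GBP1 was tested in none, with 0 to 4 reads per library. Calls rest on limma's test, at an adjusted p (Benjamini-Hochberg, over all genes tested) under 0.05, and "higher" or "lower" below means such a call.

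In MV4-11, 44 of 51 tested members were higher with the drug, where 5.85% of all 14739 tested genes were. No member was called lower in MV4-11, where 8.03% of all genes were. At an unadjusted p under 0.05 the number lower was also 0, as it was with voom weights. The median log2 change over the 51 was 1.06, against -0.01 over all tested genes. Every one of the 51 fitted changes was above 0.

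In SKNO-1, 35 of 50 members were higher, against 10.8% of all 14670 genes. None was called lower by limma, against 16.2% of all genes, with 1 lower at an unadjusted p under 0.05 and 0 with voom weights. The median change was 0.66, against -0.05 over all genes.

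In Molm-14, 15 of 48 members were higher and 2 lower. Over all 13971 tested genes 21.5% were higher and 25.2% lower, so the share of members called higher stood less far above its background than in the other lines. The median change was 0.11, against -0.06 over all genes. Without the 4 libraries rich in mitochondrial reads, 23 members were higher and 5 lower in Molm-14 (26.6% and 32.1% of all genes in that fit), 43 higher and 0 lower in MV4-11 (8.85% and 19.6%), and 43 higher and 1 lower in SKNO-1 (21.2% and 32.1%). That leaves 1 DMSO library in MV4-11, which the fit takes to vary like the other groups. Gained as higher in Molm-14 were CMPK2, DTX3L, EIF2AK2, HELZ2, SAMD9, TRIM21, TRIM5 and USP18, and gained as lower were DDX60L, LAP3 and TDRD7. MV4-11 lost EPSTI1, PARP12 and RTP4 and gained BST2 and IFITM2. SKNO-1 gained HELZ2, IFITM2, LAP3, NMI, PML, TDRD7, TRIM14 and TRIM25 as higher and LY6E as lower.

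A fit of each line's own 6 libraries, which does not share the spread across lines, moved the counts in both directions. It gave 32 higher and 0 lower members in MV4-11 (2.23% and 2.35% of all genes), 45 higher and 1 lower in SKNO-1 (24.4% and 33.2%), and 14 higher and 3 lower in Molm-14 (17.8% and 20.3%). The 14 calls lost in MV4-11 were ADAR, DDX58, DDX60, DHX58, IFITM3, LAP3, LY6E, RTP4, SP100, TDRD7, TRIM14, TRIM21, TRIM25 and TRIM5, and 2, GBP4 and IFI27, were gained. Molm-14 lost IFI35 and BST2 and gained GBP5 and TDRD7 as lower. SKNO-1 lost none of its 35 calls in that fit and gained 10 as higher and LY6E as lower.

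**Figure D2:**
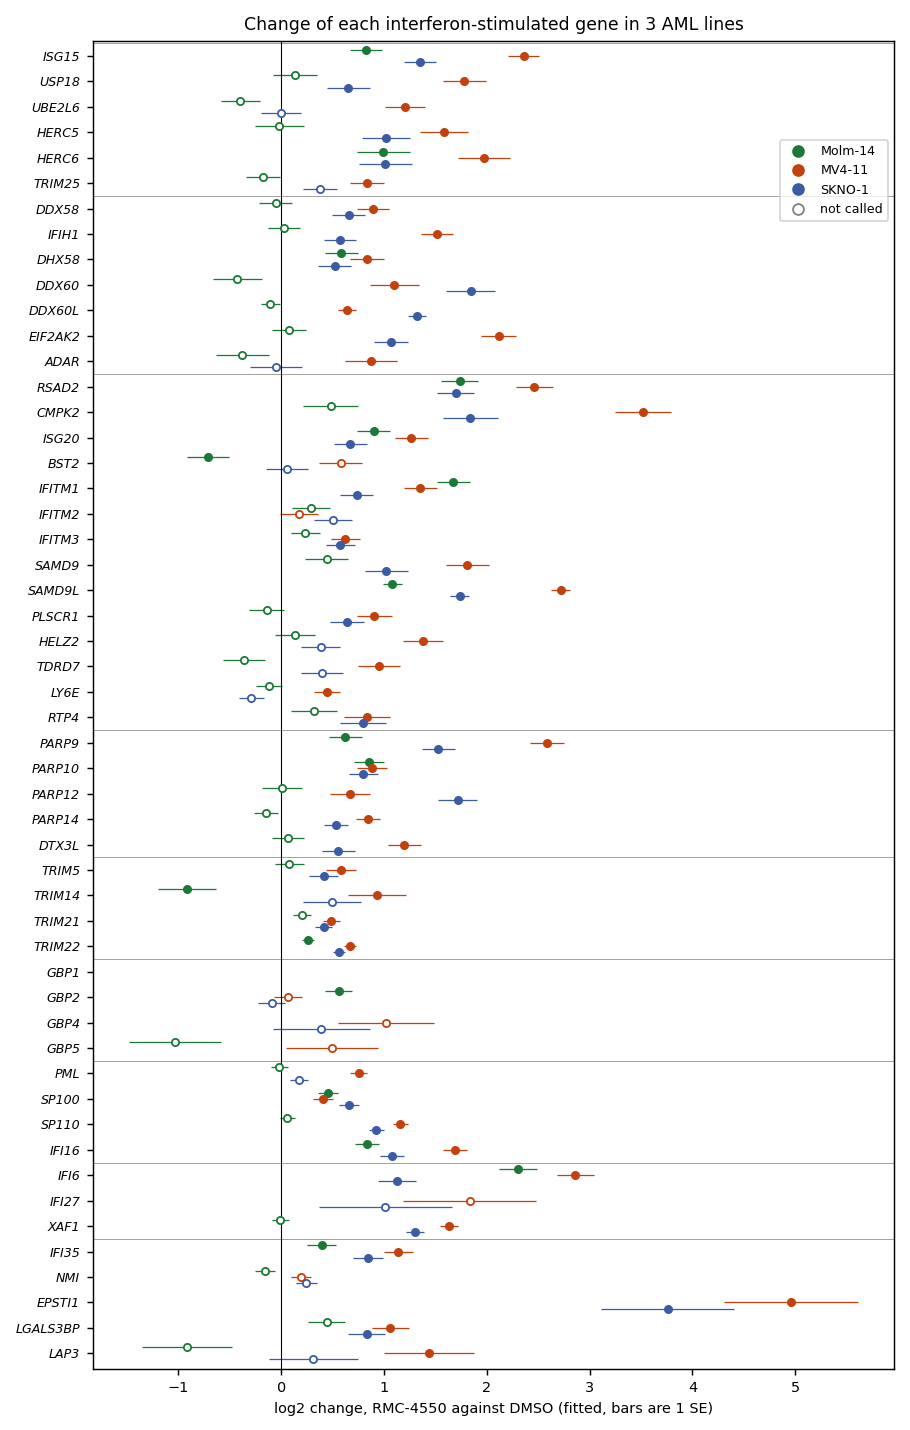
Log2 change with RMC-4550 against DMSO (x axis) for each member (y axis), 1 point per line with its SE, filled where called, in blocks by role. Most MV4-11 and SKNO-1 points lie right of 0, up to 4.96 for EPSTI1 in MV4-11, while the Molm-14 points lie on both sides.

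The filter also matters at its edge. EPSTI1, a gene of epithelial-stromal interaction, entered the tests of MV4-11 and SKNO-1 only through its treated libraries, so it had to differ. With EPSTI1 alone taken out, the counts of higher members were 43 of 50 and 34 of 49. EPSTI1 in Molm-14 fell just outside, with 2 libraries at 1 CPM, and PARP12 in SKNO-1 just inside, with 4. These were all treated libraries and DMSO replicate 3, so PARP12 also passed in SKNO-1 only through its treated libraries. HERC6 in MV4-11 stood at 0.969 CPM in DMSO replicate 1, so there it too needed a treated library to pass. PARP12 and HERC6 stay in all counts given here, although these calls are not independent of the filter.

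A set of 14 members was higher in all 3 lines: ISG15, HERC6, DHX58, RSAD2, ISG20, IFITM1, SAMD9L, PARP9, PARP10, TRIM22, SP100, IFI16, IFI6 and IFI35. Of all genes tested in every line, 3.11% were higher in all 3. Lower in all 3 lines were 5.8% of all genes and 0 members, by limma and with voom weights. Another 20 members were higher in MV4-11 and SKNO-1 and not called in Molm-14, a pattern of 0.969% of all genes tested in every line. In MV4-11 alone, 8 were called (0.743% of all genes): UBE2L6, TRIM25, ADAR, HELZ2, TDRD7, LY6E, PML and LAP3. GBP2 was called in Molm-14 alone, BST2 was lower in Molm-14 alone, and TRIM14 was lower in Molm-14 and higher in MV4-11. A call in 1 line and not in another does not show that the lines differ, and the tests of that difference follow the account of the roles. Without the 4 libraries 22 members were higher in all lines (6.41% of all genes), the 14 and the 8 gained in Molm-14. The fit of each line alone gave 11 (1.2% of all genes), without DHX58, IFI35 and SP100. Quantile normalization called 12 of the 14, without DHX58 and HERC6, and no filter called 12, without DHX58 and IFI35.

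**Figure D3:**
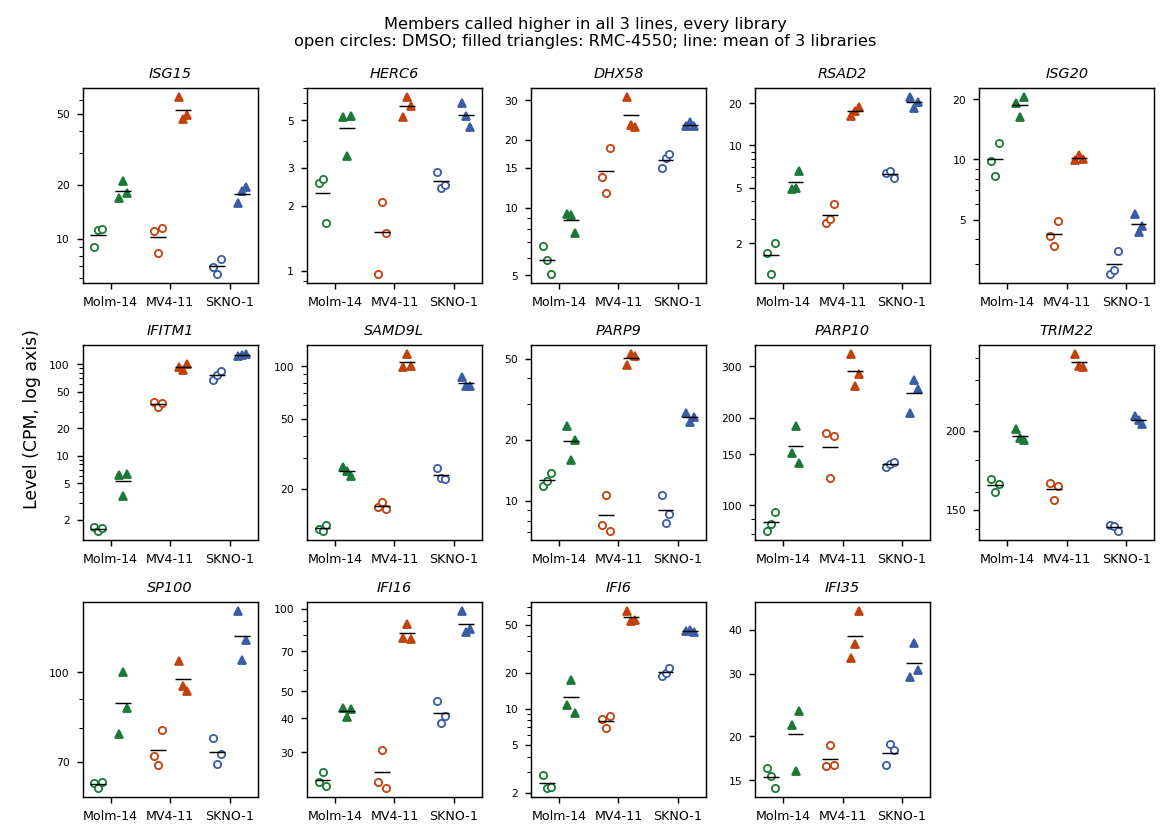
CPM on a log axis (y axis) in each of the 18 libraries for the 14 members called higher in all 3 lines, by line (x axis), open circles for DMSO, filled triangles for the drug and a bar at the group mean. The treated libraries sit above the DMSO libraries in every panel and line except IFI35 in Molm-14, where they overlap.

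ISG15 conjugation works through a small cascade like that of ubiquitin. ISG15 is the modifier, UBE2L6 the conjugating enzyme, HERC5 the main ligase with HERC6 its relative on chromosome 4, TRIM25 a further ligase, and USP18 the protease that removes ISG15 and also restrains the interferon receptor. All 6 were higher in MV4-11, 4 in SKNO-1 and 2 in Molm-14.

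ISG15 in Molm-14 stood at 9.0, 11.1 and 11.4 CPM with DMSO and 16.9, 20.9 and 17.9 CPM with the drug. The MV4-11 libraries held 11, 8.29 and 11.5 CPM with DMSO and 62, 46.8 and 49 CPM with the drug. Those of SKNO-1 held 6.92, 6.33 and 7.72 CPM with DMSO and 15.8, 18.5 and 19.4 CPM with the drug. In each line every treated library lay above every DMSO library, and the treated MV4-11 libraries were the highest of all. The log2 change was 0.82 (Molm-14), 2.36 (MV4-11) and 1.35 (SKNO-1), with an SE of 0.15 in each and adjusted p = 0.000405, 3.98e-08 and 7.35e-06.

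HERC6 was a low-abundance gene, at 2.56, 2.65 and 1.67 CPM with DMSO and 5.14, 3.39 and 5.2 CPM with the drug in Molm-14. In MV4-11 it stood at 0.969, 2.1 and 1.5 CPM with DMSO and 5.18, 6.38 and 5.84 CPM with the drug, and in SKNO-1 at 2.86, 2.43 and 2.5 CPM with DMSO and 6.01, 5.2 and 4.64 CPM with the drug. Treated and DMSO libraries did not overlap in any line, and the DMSO libraries of Molm-14 and SKNO-1 overlapped. In MV4-11 the gene passed the filter only with the help of treated libraries, so that call is not independent of the filter. The change was 0.99 (Molm-14), 1.97 (MV4-11) and 1.01 (SKNO-1), with an SE of 0.26 in each and adjusted p = 0.00499, 7.66e-05 and 0.00763, and the Molm-14 call was lost with quantile normalization.

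UBE2L6 gave 10.1, 17.2 and 11.5 CPM with DMSO and 24.9, 31.8 and 30.8 CPM with the drug in MV4-11. The Molm-14 libraries held 16.9, 18.5 and 20.2 CPM with DMSO and 16.6, 10.1 and 16.6 CPM with the drug, and the SKNO-1 libraries 22.8, 22.9 and 24.4 CPM with DMSO and 23.3, 23.9 and 22.7 CPM with the drug. Only in MV4-11 did the treated libraries lie above the DMSO ones, while in Molm-14 they lay below and in SKNO-1 they overlapped. Its change was -0.40 (Molm-14), 1.20 (MV4-11) and -0.00 (SKNO-1), with an SE of 0.19 in each and adjusted p = 0.104, 0.000523 and 0.992. USP18 changed by 1.78 in MV4-11 and 0.65 in SKNO-1 (adjusted p = 3.37e-05 and 0.0308). USP18 shares 23.4% of its exonic 50-base words with other genes, USP41 chief among them, so its reads may include those of a near copy. HERC5 changed by 1.59 and 1.02 (adjusted p = 0.000253 and 0.00412), and in Molm-14 its value was -0.02 (adjusted p = 0.957).

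Sensors of foreign RNA and the enzymes that act on double-stranded RNA made up 7 members. DDX58 (RIG-I) and IFIH1 (MDA5) recognise viral RNA and signal through MAVS, and DHX58 (LGP2) tunes them. DDX60 and DDX60L are helicases encoded side by side on chromosome 4. EIF2AK2 (PKR) shuts down translation when it binds double-stranded RNA, and ADAR edits adenosines in such RNA. All 7 were higher in MV4-11, 6 in SKNO-1 and 1, DHX58, in Molm-14.

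DHX58 rose in each line, with smaller fitted changes than those of ISG15 and HERC6. The Molm-14 libraries held 6.72, 5.82 and 5.07 CPM with DMSO and 9.4, 9.29 and 7.69 CPM with the drug. MV4-11 gave 13.6, 11.7 and 18.3 CPM with DMSO and 30.9, 23.4 and 22.9 CPM with the drug, and SKNO-1 gave 15, 16.6 and 17.3 CPM with DMSO and 23, 24 and 23.1 CPM with the drug. The groups did not overlap, and in MV4-11 DMSO replicate 3 was the highest of its group. The change was 0.58 (Molm-14), 0.84 (MV4-11) and 0.52 (SKNO-1), with an SE of 0.16 in each and adjusted p = 0.00776, 0.00238 and 0.0258. The MV4-11 call was lost in the fit of that line alone (adjusted p = 0.0723), and the Molm-14 call with quantile normalization. The SKNO-1 call of DHX58 was lost without DMSO replicate 1 or 2 or any treated replicate of SKNO-1, with an adjusted p of up to 0.096.

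DDX60 split the lines by direction of the point estimates. Its Molm-14 libraries held 36.5, 35.3 and 35.9 CPM with DMSO and 32.4, 18.5 and 31.6 CPM with the drug, and those of SKNO-1 2.91, 2.8 and 2.73 CPM with DMSO and 10.7, 8.72 and 11.1 CPM with the drug. MV4-11 held 10.9, 19.7 and 9.87 CPM with DMSO and 22.6, 32.4 and 28.6 CPM with the drug. Treated SKNO-1 and MV4-11 libraries were all above their DMSO libraries, and treated Molm-14 libraries were all below theirs, with replicate 2 lowest. The change was -0.43 (Molm-14), 1.10 (MV4-11) and 1.84 (SKNO-1), with an SE of 0.24 in each and adjusted p = 0.15, 0.00518 and 2.89e-05, so the Molm-14 value did not pass the test. In the fit of MV4-11 alone the adjusted p was 0.0783.

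DDX60L was most abundant in Molm-14 and least in SKNO-1. In SKNO-1 it read 20.8, 20.5 and 18.6 CPM with DMSO and 54.1, 47.6 and 48.2 CPM with the drug. It read 56.9, 57 and 60.7 CPM with DMSO and 99.7, 91.1 and 82.3 CPM with the drug in MV4-11 and 113, 109 and 109 CPM with DMSO and 97.6, 115 and 95.6 CPM with the drug in Molm-14. Treated libraries were above DMSO libraries in SKNO-1 and MV4-11 and overlapped them in Molm-14. The change was -0.11 (Molm-14), 0.64 (MV4-11) and 1.32 (SKNO-1), with an SE of 0.09 in each and adjusted p = 0.35, 0.000171 and 4.49e-08.

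EIF2AK2 in MV4-11 stood at 24.3, 34.3 and 22 CPM with DMSO and 92.1, 135 and 120.3 CPM with the drug. In SKNO-1 it stood at 31.6, 31.5 and 32.6 CPM with DMSO and 71.9, 63.6 and 65.2 CPM with the drug, and in Molm-14 at 57.3, 60 and 61.3 CPM with DMSO and 73.4, 49.6 and 67.6 CPM with the drug. The treated libraries were well above DMSO in MV4-11 and SKNO-1, whereas Molm-14 overlapped, since its treated replicate 2 lay below all others. The change was 0.07 (Molm-14), 2.12 (MV4-11) and 1.07 (SKNO-1), with an SE of 0.17 in each and adjusted p = 0.734, 4.58e-07 and 0.00019. The Molm-14 value was 0.24 (adjusted p = 0.00576) without the 4 libraries. IFIH1 changed by 1.51 in MV4-11 and 0.57 in SKNO-1 (adjusted p = 8.07e-06 and 0.0123), and DDX58 by 0.89 and 0.66 (adjusted p = 0.00128 and 0.00596). ADAR was higher in MV4-11 alone, by 0.88 (adjusted p = 0.0319), although DMSO replicate 2, at 263 CPM, lay above treated replicate 1, at 217 CPM.

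The antiviral effectors, 14 members, act on viruses more directly. Of these 12 were higher in MV4-11, 9 in SKNO-1 and 4 in Molm-14, where 1, BST2, was lower. RSAD2 (viperin) makes a nucleotide that ends viral RNA chains, and CMPK2, which lies next to it on chromosome 2, is a nucleotide kinase. The genes start close together on opposite strands and their exons overlap in the annotation, so unstranded counting could not separate reads there. How the authors treated strand is not given in the sources used here.

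RSAD2 gave 1.72, 1.21 and 2.01 CPM with DMSO and 4.86, 5.0 and 6.62 CPM with the drug in Molm-14. It gave 2.8, 2.97 and 3.83 CPM with DMSO and 16.3, 17.6 and 18.9 CPM with the drug in MV4-11 and 6.37, 6.52 and 5.84 CPM with DMSO and 22.1, 18.6 and 20.4 CPM with the drug in SKNO-1. No treated library fell within the DMSO range of its line, and the DMSO level was highest in SKNO-1. The change was 1.74 (Molm-14), 2.46 (MV4-11) and 1.70 (SKNO-1), with an SE of 0.18 in each and adjusted p = 1.72e-06, 1.95e-07 and 3.81e-06, with RSAD2 ranked second in Molm-14.

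CMPK2 showed the largest change in MV4-11 after EPSTI1. MV4-11 libraries held 2.26, 4.55 and 2.21 CPM with DMSO and 22.1, 39.3 and 40.9 CPM with the drug. SKNO-1 libraries held 8.17, 7.89 and 6.54 CPM with DMSO and 25.6, 27.1 and 28.1 CPM with the drug, and Molm-14 libraries 4.83, 5.13 and 6.96 CPM with DMSO and 8.91, 6.15 and 8.6 CPM with the drug. Treated libraries stood apart in MV4-11 and SKNO-1 and overlapped in Molm-14. The change was 0.48 (Molm-14), 3.52 (MV4-11) and 1.84 (SKNO-1), with an SE of 0.27 in each and adjusted p = 0.154, 3.55e-07 and 9.97e-05. The Molm-14 value was 0.65 (adjusted p = 0.000703) without the 4 libraries. Within the range of MV4-11 values, DMSO replicate 2 was the highest of its group and treated replicate 1 the lowest.

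ISG20, an exonuclease that degrades RNA, was at 9.78, 8.25 and 12.1 CPM with DMSO and 19.1, 16.3 and 20.5 CPM with the drug in Molm-14. MV4-11 was at 4.14, 3.68 and 4.91 CPM with DMSO and 9.93, 10.6 and 10 CPM with the drug, and SKNO-1 at 2.68, 2.8 and 3.48 CPM with DMSO and 5.32, 4.31 and 4.64 CPM with the drug. Each treated library was above its DMSO counterparts, and the levels ordered the lines Molm-14, MV4-11, SKNO-1 under both treatments. The change was 0.90 (Molm-14), 1.27 (MV4-11) and 0.67 (SKNO-1), with an SE of 0.16 in each and adjusted p = 0.000321, 6.37e-05 and 0.00542.

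IFITM1, IFITM2 and IFITM3 encode small membrane proteins that hinder viral fusion. IFITM1 in Molm-14 stood at 1.67, 1.5 and 1.62 CPM with DMSO and 6.07, 3.59 and 6.22 CPM with the drug. In MV4-11 it stood at 38.7, 33.8 and 37.4 CPM with DMSO and 93.3, 86.4 and 101 CPM with the drug, and in SKNO-1 at 66.5, 76.8 and 84.1 CPM with DMSO and 121, 127 and 129 CPM with the drug. The Molm-14 level was far below that of the other lines with or without drug, and the treated libraries were above DMSO everywhere. The change was 1.67 (Molm-14), 1.35 (MV4-11) and 0.73 (SKNO-1), with an SE of 0.16 in each and adjusted p = 7.84e-07, 3.37e-05 and 0.00284. IFITM1 shares 42.3% of its exonic 50-base words with other genes, mainly IFITM2, and overlaps IFITM2 on the same strand in the annotation, so its values are uncertain to that extent. IFITM3 was higher in MV4-11 and SKNO-1 by 0.62 and 0.58 (adjusted p = 0.00738 and 0.00642). IFITM2, the most abundant member per length in MV4-11 and SKNO-1, was called in no line, and its SKNO-1 change was 0.51 ± 0.18 (SE, adjusted p = 0.0508).

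SAMD9 and SAMD9L, neighbours on chromosome 7, restrict poxviruses and slow translation, and SAMD9L restrains the growth of blood cells. SAMD9L stood at 11.8, 11.5 and 12.4 CPM with DMSO and 26.7, 25.2 and 23.7 CPM with the drug in Molm-14. MV4-11 held 15.8, 16.9 and 15.3 CPM with DMSO and 99.1, 117 and 100.2 CPM with the drug, and SKNO-1 held 26.2, 23.1 and 22.8 CPM with DMSO and 86.9, 76.8 and 77 CPM with the drug. The replicates lay close together, and the groups were wide apart in each line. The change was 1.08 (Molm-14), 2.72 (MV4-11) and 1.74 (SKNO-1), with an SE of 0.09 in each and adjusted p = 2.27e-07, 1.09e-11 and 5.25e-09. SAMD9 was higher by 1.81 in MV4-11 and 1.02 in SKNO-1 (adjusted p = 2.54e-05 and 0.00165), and its Molm-14 value was 0.44 (adjusted p = 0.0921), or 0.65 (adjusted p = 4.19e-05) without the 4 libraries.

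BST2 (tetherin) holds budding virus particles at the cell surface. In Molm-14 it stood at 64.3, 61.5 and 67.3 CPM with DMSO and 47.8, 24.5 and 51.6 CPM with the drug. In MV4-11 the libraries held 67.7, 96.2 and 68.2 CPM with DMSO and 103, 120.4 and 119 CPM with the drug, and in SKNO-1 95.5, 95.9 and 91.8 CPM with DMSO and 107, 90 and 98 CPM with the drug. Treated libraries were below DMSO in Molm-14, above it in MV4-11 and overlapping in SKNO-1. The Molm-14 change was -0.71 ± 0.21 (SE, adjusted p = 0.0102), a call lost in the fit of that line alone (adjusted p = 0.0786). Treated replicate 2 of Molm-14 was the lowest, and without the 4 libraries rich in mitochondrial reads the change was -0.37 (adjusted p = 0.000156). The MV4-11 and SKNO-1 values were 0.58 and 0.05 (adjusted p = 0.078 and 0.877). Among the remaining effectors, HELZ2, TDRD7 and LY6E were higher in MV4-11 alone, by 1.38, 0.95 and 0.45 (adjusted p = 0.00015, 0.00442 and 0.0236). HELZ2 was higher in all 3 lines without the 4 libraries, at 0.37 (adjusted p = 0.000876) in Molm-14 and 0.38 (adjusted p = 0.000328) in SKNO-1, and also with the mitochondrial share as a covariate. PLSCR1, a phospholipid scramblase, and RTP4, a receptor transporter, were higher in MV4-11 and SKNO-1.

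The PARP enzymes attach ADP-ribose to proteins and nucleic acids, and PARP9 works in a complex with the ubiquitin ligase DTX3L. PARP9, DTX3L and PARP14 lie in 1 cluster on chromosome 3. All 5 members of this group were higher in MV4-11 and in SKNO-1, and PARP9 and PARP10 were higher in Molm-14. PARP9 and DTX3L start close together on opposite strands with overlapping exons, which limits them as it does RSAD2 and CMPK2.

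PARP9 in Molm-14 gave 11.8, 12.6 and 13.6 CPM with DMSO and 23.3, 15.9 and 19.9 CPM with the drug. In MV4-11 it gave 7.64, 10.7 and 7.12 CPM with DMSO and 46.5, 52.6 and 51.7 CPM with the drug, and in SKNO-1 10.7, 7.76 and 8.66 CPM with DMSO and 27.1, 24.5 and 26 CPM with the drug. No groups overlapped, but in Molm-14 treated replicate 2 came near the DMSO libraries. The change was 0.62 (Molm-14), 2.58 (MV4-11) and 1.53 (SKNO-1), with an SE of 0.16 in each and adjusted p = 0.0051, 2.83e-08 and 3.72e-06.

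PARP10 was expressed at a higher level, with 81.8, 86.4 and 94.9 CPM with DMSO and 152, 187 and 140.2 CPM with the drug in Molm-14. MV4-11 held 178, 124 and 173 CPM with DMSO and 329.7, 256 and 282 CPM with the drug, and SKNO-1 held 135, 139 and 141 CPM with DMSO and 207, 269 and 251 CPM with the drug. The treated libraries lay above DMSO in all lines, with a wider spread among treated than among DMSO replicates in Molm-14 and SKNO-1. The change was 0.86 (Molm-14), 0.88 (MV4-11) and 0.80 (SKNO-1), with an SE of 0.14 in each and adjusted p = 0.000186, 0.000602 and 0.000613, close in size across the lines.

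PARP12 was barely expressed in SKNO-1, with 0.554, 0.734 and 1.08 CPM with DMSO and 2.41, 3.15 and 2.21 CPM with the drug. It entered the SKNO-1 test only through its treated libraries, so its SKNO-1 call is not independent of the filter. In MV4-11 it had 9.85, 11.7 and 10.8 CPM with DMSO and 18.7, 15.6 and 17.2 CPM with the drug, and in Molm-14 22.9, 24.2 and 26.9 CPM with DMSO and 24.2, 25.8 and 24.3 CPM with the drug. Treated libraries lay above DMSO in SKNO-1 and MV4-11 and overlapped in Molm-14. The change was 0.01 (Molm-14), 0.67 (MV4-11) and 1.72 (SKNO-1), with an SE of 0.19 in each and adjusted p = 0.972, 0.0278 and 6.04e-06. The MV4-11 call of PARP12 was lost without DMSO replicate 1 or 3 or treated replicate 1 or 3 of MV4-11 (adjusted p up to 0.0993), and without the 4 libraries rich in mitochondrial reads the value was 0.49 (adjusted p = 0.221). DTX3L was higher by 1.20 in MV4-11 and 0.56 in SKNO-1 (adjusted p = 9.4e-05 and 0.0168), and PARP14 by 0.85 and 0.53 (adjusted p = 0.000117 and 0.00272).

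TRIM proteins are ubiquitin ligases and adaptors, several of which bind viral capsids or signalling proteins. All 4 listed here were higher in MV4-11, 3 in SKNO-1 and 1, TRIM22, in Molm-14, where TRIM14 was lower. TRIM22 was abundant and tightly replicated, at 168, 159.7 and 165 CPM with DMSO and 201, 195 and 193 CPM with the drug in Molm-14. It stood at 166, 156 and 163 CPM with DMSO and 264, 253 and 252 CPM with the drug in MV4-11 and 142, 142 and 139 CPM with DMSO and 211, 208 and 205 CPM with the drug in SKNO-1. The groups were apart in every line, and the change was the smallest of the 14 shared members in Molm-14. It came to 0.26 (Molm-14), 0.67 (MV4-11) and 0.56 (SKNO-1), with an SE of 0.06 in each and adjusted p = 0.00203, 1.55e-06 and 3.5e-06.

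TRIM14, an adaptor of mitochondrial antiviral signalling, moved in opposite directions. Its Molm-14 libraries held 33.6, 37.5 and 38.4 CPM with DMSO and 26.4, 11.5 and 23.4 CPM with the drug. MV4-11 libraries held 23.1, 43.7 and 21.7 CPM with DMSO and 38.9, 64.5 and 61.2 CPM with the drug, and SKNO-1 libraries 44.7, 44.8 and 47 CPM with DMSO and 61.1, 68.4 and 62.7 CPM with the drug. Treated libraries were below DMSO in Molm-14 and above it in SKNO-1, and in MV4-11 DMSO replicate 2 reached above treated replicate 1. The change was -0.92 (Molm-14), 0.94 (MV4-11) and 0.49 (SKNO-1), with an SE of 0.28 in each and adjusted p = 0.0145, 0.0376 and 0.222. The Molm-14 call was lost without treated replicate 2 of that line (-0.55, adjusted p = 0.0817), and without all 4 libraries rich in mitochondrial reads the value was -0.55 (adjusted p = 9.52e-06). In MV4-11 it was 0.52 (adjusted p = 0.00113) without them. The MV4-11 call was lost on leaving out any 1 of 8 libraries, which were DMSO replicates 1 and 3 and treated replicates 2 and 3 of MV4-11 and all DMSO replicates and treated replicate 3 of SKNO-1 (adjusted p up to 0.159). TRIM5, which recognises retroviral capsids, and TRIM21, an antibody receptor in the cytosol, were higher in MV4-11 by 0.58 and 0.49 and in SKNO-1 by 0.41 and 0.41 (adjusted p between 0.000861 and 0.0445).

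Guanylate-binding proteins are large GTPases best known as targets of interferon gamma. GBP2 gave 48.5, 48.4 and 54.5 CPM with DMSO and 67.2, 89.4 and 67.9 CPM with the drug in Molm-14, where it was higher by 0.56 ± 0.14 (SE, adjusted p = 0.00319). In MV4-11 and SKNO-1 its values were 0.06 and -0.09 (adjusted p = 0.812 and 0.664). The treated Molm-14 libraries of GBP2 lay above those of DMSO, and this was the sole call among the family. GBP5 in Molm-14 had 11.1, 13 and 11.2 CPM with DMSO and 4.97, 5.51 and 6.84 CPM with the drug, with all treated libraries below DMSO and a change of -1.03 ± 0.45 (SE, adjusted p = 0.0689). GBP4 in MV4-11 had 8.66, 11.3 and 7.72 CPM with DMSO and 16.6, 19.5 and 19.5 CPM with the drug, a change of 1.02 ± 0.47 (SE, adjusted p = 0.183). Its Molm-14 libraries held 0 to 2 reads each. These uncalled values rest on a spread shared across lines. In the fit of the line's own 6 libraries, GBP5 in Molm-14 had an adjusted p of 0.00375, and GBP4 had 0.0238 in MV4-11 and 0.00012 in SKNO-1.

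PML and SP100 are the scaffolds of PML nuclear bodies, SP110 is a relative of SP100, and IFI16 senses DNA in the nucleus. All 4 were higher in MV4-11, 3 in SKNO-1 and 2, SP100 and IFI16, in Molm-14. IFI16 stood at 23.3, 25.4 and 22.6 CPM with DMSO and 43.5, 40.5 and 43.2 CPM with the drug in Molm-14. In MV4-11 it stood at 23.4, 30.7 and 22.3 CPM with DMSO and 78.5, 88.2 and 77.6 CPM with the drug, and in SKNO-1 at 46, 38.3 and 40.7 CPM with DMSO and 98, 82.6 and 84 CPM with the drug. The groups were clearly apart, and SKNO-1 held the highest DMSO level. The change was 0.83 (Molm-14), 1.69 (MV4-11) and 1.08 (SKNO-1), with an SE of 0.12 in each and adjusted p = 3.27e-05, 9.3e-08 and 4.23e-06.

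SP100 read 64.4, 63.1 and 64.6 CPM with DMSO and 78.2, 100.2 and 86.7 CPM with the drug in Molm-14. It read 71.6, 69.1 and 79.5 CPM with DMSO and 105, 94.7 and 93 CPM with the drug in MV4-11 and 76.9, 69.5 and 72.4 CPM with DMSO and 128, 105 and 114 CPM with the drug in SKNO-1. All DMSO libraries lay between 63.1 and 79.5 CPM, and in each line the treated libraries were above those of DMSO. The change was 0.46 (Molm-14), 0.41 (MV4-11) and 0.66 (SKNO-1), with an SE of 0.10 in each and adjusted p = 0.00125, 0.00984 and 0.000104, with an adjusted p of 0.104 in the fit of MV4-11 alone. SP100 shares 13.3% of its exonic 50-base words with other genes, mainly the pseudogene HMGB1P3. SP110 was higher by 1.16 in MV4-11 and 0.93 in SKNO-1 (adjusted p = 3.95e-08 and 2.32e-07), with 0.06 in Molm-14 (adjusted p = 0.532). PML was higher in MV4-11 alone, by 0.75 (adjusted p = 1.91e-05).

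IFI6 and IFI27 encode small hydrophobic proteins of internal membranes, and XAF1 counters the caspase inhibitor XIAP. IFI6 was the member with the largest change in Molm-14, with 2.83, 2.19 and 2.23 CPM with DMSO and 10.7, 17.3 and 9.22 CPM with the drug. MV4-11 libraries held 8.23, 6.9 and 8.62 CPM with DMSO and 64.9, 53.6 and 54.7 CPM with the drug, and SKNO-1 libraries 18.8, 19.9 and 21.9 CPM with DMSO and 44.1, 44.9 and 43.2 CPM with the drug. The DMSO level was lowest in Molm-14 and highest in SKNO-1, and treated libraries were far above DMSO in each. The change was 2.30 (Molm-14), 2.86 (MV4-11) and 1.13 (SKNO-1), with an SE of 0.18 in each and adjusted p = 1.14e-07, 3.36e-08 and 0.000239. XAF1 was higher by 1.63 in MV4-11 and 1.30 in SKNO-1 (adjusted p = 2.71e-09 and 2.43e-08), and in Molm-14 its value was -0.01 (adjusted p = 0.928). XAF1 overlaps the antisense gene PRAL over 38.3% of its exonic length. IFI27 stood at 1.18, 1.23 and 1.2 CPM with DMSO and 5.18, 4.3 and 3.7 CPM with the drug in MV4-11, without overlap, and its change was 1.83 ± 0.65 (SE, adjusted p = 0.0757). In fits of the line's own libraries IFI27 had an adjusted p of 0.00652 in MV4-11 and 2.04e-05 in SKNO-1.

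Of the other members, IFI35 and NMI encode proteins that bind each other, LGALS3BP a secreted galectin-binding glycoprotein, LAP3 a leucine aminopeptidase, and EPSTI1 a protein studied in tumour and stromal cell contact. IFI35 had 16.2, 15.4 and 14.3 CPM with DMSO and 21.5, 15.9 and 23.6 CPM with the drug in Molm-14. In MV4-11 it had 16.4, 18.8 and 16.6 CPM with DMSO and 33.4, 36.4 and 45.2 CPM with the drug, and in SKNO-1 16.6, 19 and 18.2 CPM with DMSO and 29.4, 36.6 and 30.8 CPM with the drug. Treated libraries were above DMSO in MV4-11 and SKNO-1, and in Molm-14 treated replicate 2 lay inside the DMSO range. The change was 0.39 (Molm-14), 1.14 (MV4-11) and 0.84 (SKNO-1), with an SE of 0.14 in each and adjusted p = 0.0357, 6.26e-05 and 0.000406. The Molm-14 call of IFI35 was lost in the fit of that line alone (adjusted p = 0.1) and without DMSO replicate 2 or 3 or treated replicate 1 or 3 of Molm-14 (adjusted p up to 0.151).

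EPSTI1 was close to 0 with DMSO in every line. In MV4-11 it gave 0.215, 0.205 and 0.179 CPM with DMSO and 7.5, 7.95 and 5.84 CPM with the drug, which is 3 to 4 reads per library against 115 to 157. In SKNO-1 it gave 0.277, 0.413 and 0.282 CPM with DMSO and 4.49, 4.55 and 4.78 CPM with the drug, which is 6 to 9 reads against 97 to 104. The treated libraries were all above the DMSO ones, also in the untested Molm-14, at 0, 0.288 and 0.334 CPM with DMSO and 1.09, 1.28 and 0.792 CPM with the drug. The log2 change was 4.96 ± 0.65 (SE, adjusted p = 8.11e-05) in MV4-11 and 3.76 ± 0.65 (SE, adjusted p = 0.000442) in SKNO-1, values whose size depends on the 0.5 reads added before the logarithm. Without the 4 libraries EPSTI1 was not tested in MV4-11.

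LAP3 in MV4-11 held 20.2, 61.3 and 19.3 CPM with DMSO and 51.3, 96.9 and 95.2 CPM with the drug. Molm-14 libraries held 57.8, 55.5 and 59.7 CPM with DMSO and 43.1, 13.6 and 48.8 CPM with the drug, and SKNO-1 libraries 69.1, 68.2 and 70.2 CPM with DMSO and 89.2, 85.8 and 83 CPM with the drug. In MV4-11 the groups overlapped, since DMSO replicate 2 lay above treated replicate 1, and in Molm-14 treated replicate 2 was far below the others. The change was -0.91 (Molm-14), 1.44 (MV4-11) and 0.31 (SKNO-1), with an SE of 0.44 in each and adjusted p = 0.0961, 0.0379 and 0.648. Without the 4 libraries it was 0.65 (adjusted p = 2.58e-05) in MV4-11 and -0.33 (adjusted p = 0.000181) in Molm-14, and the MV4-11 call rested on single libraries. It was lost on leaving out any 1 of 11: the DMSO replicates of Molm-14 and SKNO-1, treated replicate 3 of SKNO-1, and DMSO replicates 1 and 3 and treated replicates 2 and 3 of MV4-11 (adjusted p up to 0.162). LGALS3BP was higher in MV4-11 and SKNO-1 by 1.06 and 0.83 (adjusted p = 0.000826 and 0.00252). NMI was called in no line, with values from -0.16 to 0.25, but had an adjusted p of 0.0185 in limma's fit of SKNO-1 alone.

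Single libraries were low or high for many members at once. Treated replicate 2 of Molm-14 was the lowest of its 3 for 33 of 48 members, DMSO replicate 2 of MV4-11 the highest of its 3 for 32 of 51, and treated replicate 1 of MV4-11 the lowest of its 3 for 29 of 51. The mitochondrial share was 15% in the first of these libraries, the highest of the 18, and over 10% in the last. DMSO replicate 2 of MV4-11 was the library of its group with a share under 10%. The counts without the 4 libraries above 10% are given above. Counted by overlap alone, every treated library was above every DMSO library for 17 of 48 members in Molm-14 (26.9% of all genes), 44 of 51 in MV4-11 (11.1%) and 44 of 50 in SKNO-1 (26.6%). Every treated library was below for 8 in Molm-14 (33.1% of all genes), 0 in MV4-11 (13.5%) and 0 in SKNO-1 (35.4%).

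Whether the lines responded to different degrees was tested directly, as the difference between their responses. Between Molm-14 and MV4-11, 30 of 51 members had the smaller response in Molm-14, against 8.04% of all 15252 genes. None had the larger response in Molm-14 by limma, against 9.58% of all genes, with 1 at an unadjusted p under 0.05 and 0 with voom weights. The widest gap was that of CMPK2, at -3.04 ± 0.38 (SE, adjusted p = 0.000132). LAP3 differed by -2.35 ± 0.62 (SE, adjusted p = 0.0179) and EIF2AK2 by -2.04 ± 0.24 (SE, adjusted p = 7.02e-05). The LAP3 difference was lost without DMSO replicate 1 or 3 or treated replicate 2 of MV4-11, with an adjusted p of up to 0.0561.

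Between SKNO-1 and Molm-14, 13 members had the larger response in SKNO-1 (3.71% of all genes) and 3 the smaller (5.91%). DDX60 differed by 2.27 ± 0.34 (SE, adjusted p = 0.000508) and PARP12 by 1.71 ± 0.27 (SE, adjusted p = 0.000821), both larger in SKNO-1. The smaller ones were IFI6, at -1.18 ± 0.26 (SE, adjusted p = 0.00826), IFITM1, at -0.94 ± 0.23 (SE, adjusted p = 0.0151), and GBP2. TRIM14 differed by 1.41 ± 0.40 (SE, adjusted p = 0.0359), and CMPK2 by 1.36 ± 0.38 (SE, adjusted p = 0.0345). The TRIM14 call was lost on leaving out any SKNO-1 library, any DMSO replicate of Molm-14 or its treated replicate 2 (adjusted p up to 0.0764). The CMPK2 call was lost on leaving out any SKNO-1 library, or DMSO replicate 2 or 3 or treated replicate 2 of Molm-14 (adjusted p up to 0.0896). For GBP2 the SKNO-1 minus the Molm-14 response was -0.65 ± 0.19 (SE, adjusted p = 0.0419), and the difference between Molm-14 and MV4-11 was 0.49 ± 0.19 (SE, adjusted p = 0.0816), which did not pass the test.

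Between SKNO-1 and MV4-11, 10 members had the smaller response in SKNO-1 (1.11% of all genes), and 1, DDX60L, the larger (0.464%). The 10 became 3 to 5 when any SKNO-1 library, DMSO replicate 1 or 3 or treated replicate 2 or 3 of MV4-11, or DMSO replicate 2 of Molm-14 was left out, and 18 without DMSO replicate 2 of MV4-11. The replicate block, no filter and eBayes without a trend each gave 5. IFI6 differed by -1.74 ± 0.26 (SE, adjusted p = 0.00186). The differences of CMPK2, at -1.68 ± 0.38 (SE, adjusted p = 0.034), UBE2L6, at -1.21 ± 0.27 (SE, adjusted p = 0.0338), PARP9, at -1.06 ± 0.23 (SE, adjusted p = 0.0246), and EIF2AK2, at -1.05 ± 0.24 (SE, adjusted p = 0.0325), were each lost on leaving out any 1 of between 8 and 13 libraries. For each of the 4 these included DMSO replicates 1 and 3 and treated replicates 2 and 3 of MV4-11 and at least 4 SKNO-1 libraries, and, for CMPK2, UBE2L6 and EIF2AK2, also DMSO libraries of Molm-14. The highest adjusted p was 0.112 for CMPK2, 0.102 for UBE2L6, 0.0781 for PARP9 and 0.0988 for EIF2AK2. The 3 comparisons between lines share their libraries and are not independent of each other.

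A set of 9 members was higher in MV4-11 beyond both other lines: ISG15, UBE2L6, IFIH1, EIF2AK2, CMPK2, SAMD9L, LY6E, PARP9 and PML. Over all genes the share was 0.156%. The number rests on single libraries, since it was 2 without DMSO replicate 3 or treated replicate 3 of MV4-11 or DMSO replicate 3 of SKNO-1, and 17 without DMSO replicate 2 of MV4-11. DDX60L was higher in SKNO-1 beyond both others (0.218% of all genes), and TRIM14 was lower in Molm-14 beyond both (2.09%). For Molm-14 this single member is near the share of all genes and is not read as a result about the members. Its number was 0 to 2 on leaving out each library in turn. By limma, as with voom weights, the number higher in Molm-14 beyond both others was 0, where 3.96% of all genes were. It was also 0 for members lower beyond both others in MV4-11 and in SKNO-1, where the shares of all genes were 0.0543% and 0.341%.

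**Figure D4:**
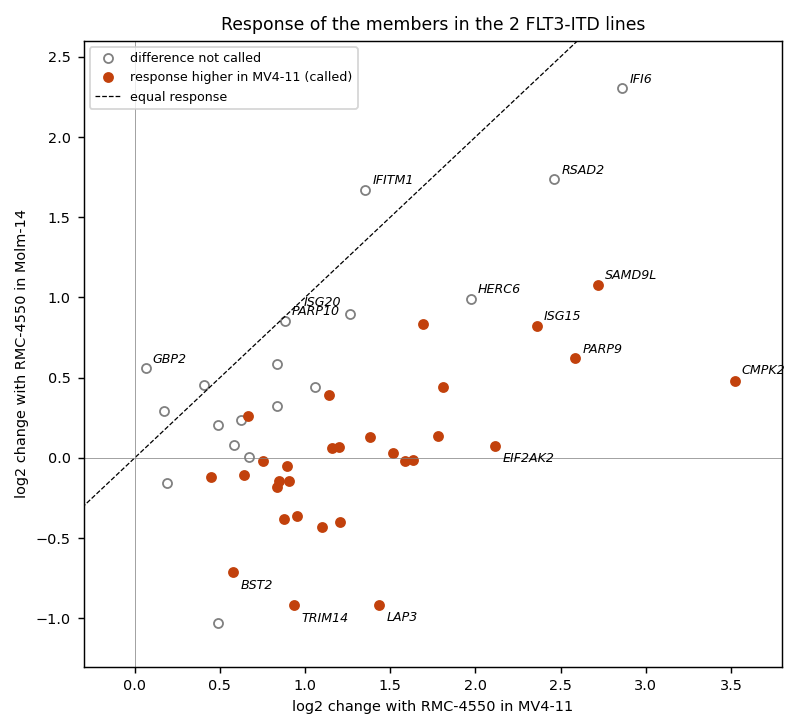
Log2 change with RMC-4550 in Molm-14 (y axis) against that in MV4-11 (x axis), 1 point per member tested in both lines, filled where limma called the difference between the responses, with a dashed line of equality. The 30 filled points all lie below the line, and CMPK2, at -3.04, lies farthest from it.

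With DMSO the members differed between the lines in both directions, as did many of all genes. Molm-14 exceeded MV4-11 for 19 of 51 members with DMSO (27.9% of all genes) and was below it for 13 (26.2%). SKNO-1 exceeded Molm-14 for 20 (32.5%) and was below it for 17 (32.7%). SKNO-1 exceeded MV4-11 for 18 (19.4%) and was below it for 9 (22.2%). The largest of these differences sat in genes close to silence in 1 line, such as GBP4 in Molm-14.

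The order of the lines changed with the drug. With DMSO the highest group mean was in SKNO-1 for 29 of 51 members, in Molm-14 for 19 and in MV4-11 for 3. With RMC-4550 it was in MV4-11 for 29, in SKNO-1 for 15 and in Molm-14 for 7. These counts order means without a test of neighbours. Per kb of exonic length, IFITM2 was the most abundant member in DMSO MV4-11 and SKNO-1, at 186 ± 47.2 and 216 ± 13.6 CPM per kb (SD, n = 3). In DMSO Molm-14 it was BST2, at 57.5 ± 2.6 CPM per kb. Lengths come from GENCODE 29.

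The pathway genes around the members gave calls in both directions. Beside their counts stand the shares of all genes called, which were 21.5% higher and 25.2% lower in Molm-14, 5.85% and 8.03% in MV4-11, and 10.8% and 16.2% in SKNO-1. Of the ligands, IFNB1 gave 0 to 6 reads per library, with 4 to 6 in treated MV4-11, and IFNK, IFNW1, IFNL1 and IFNL3 gave between 0 and 5. None was tested, since none reached 1 CPM in 3 libraries of a line, and 5 further ligands were not analysed here. Of the receptor chains, 5 were tested: 2 were higher and 1 lower in Molm-14, and 2 were lower in SKNO-1. IFNGR1, a chain of the interferon gamma receptor, was lower in Molm-14 and SKNO-1, with changes of -0.21 and -0.28 (adjusted p = 0.0385 and 0.0154). IFNGR2 was higher in Molm-14, with means of 87.7 CPM with DMSO and 107 CPM with the drug. It was lower in SKNO-1, with means of 72.8 and 62.6 CPM. IFNAR1 and IFNAR2, the chains of the type I receptor, were called in no line.

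Of 9 relay genes from JAK kinases to IRF factors, 3 were higher and 1 lower in Molm-14, 3 higher in MV4-11, and 2 higher and 1 lower in SKNO-1. IRF9, the DNA-binding part of ISGF3, stood at 6.5, 5.77 and 5.4 CPM with DMSO and 12, 13.6 and 11.1 CPM with the drug in Molm-14. It stood at 13.9, 8.64 and 12.1 CPM with DMSO and 27.9, 20.7 and 22.9 CPM with the drug in MV4-11 and 11.4, 11.2 and 10.5 CPM with DMSO and 14.3, 15.5 and 16.7 CPM with the drug in SKNO-1. Treated libraries exceeded DMSO libraries in each line. The change was 1.05 (Molm-14), 1.06 (MV4-11) and 0.49 (SKNO-1), with an SE of 0.16 in each and adjusted p = 6.59e-05, 0.000273 and 0.0291.

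IRF7, which drives interferon genes, gave 36.1, 41.2 and 41.6 CPM with DMSO and 98.2, 141 and 107 CPM with the drug in Molm-14. It gave 77.1, 48.1 and 76.5 CPM with DMSO and 192, 132 and 155 CPM with the drug in MV4-11 and 48.1, 47 and 52.9 CPM with DMSO and 78.6, 97.2 and 93.9 CPM with the drug in SKNO-1. It was above DMSO in every treated library, with the lowest start in Molm-14. The change was 1.53 (Molm-14), 1.26 (MV4-11) and 0.86 (SKNO-1), with an SE of 0.18 in each and adjusted p = 6.22e-06, 0.000177 and 0.00202.

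STAT2, the transactivating part of ISGF3, was higher in MV4-11 by 0.59 (adjusted p = 0.0236). IRF2, which represses interferon targets, was lower in Molm-14 and SKNO-1, with changes of -0.57 and -0.30 (adjusted p = 3.72e-05 and 0.0116). IRF1 gave values of 0.17, 0.16 and 0.30 and was called in no line.

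**Figure D5:**
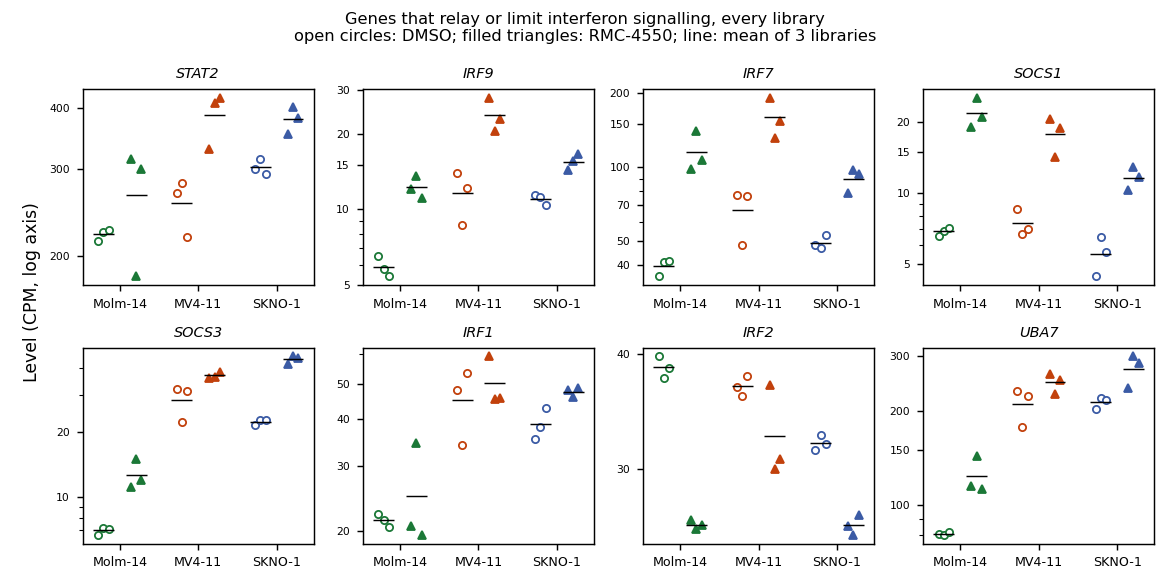
CPM on a log axis (y axis) in each library for 8 relay and feedback genes of the interferon pathway, by line (x axis), open circles for DMSO, filled triangles for the drug and a bar at the group mean. The treated libraries of IRF9, IRF7, SOCS1 and SOCS3 lie above the DMSO libraries in all 3 lines, and the SOCS3 difference in MV4-11 did not pass the test.

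Of 7 sensing genes tested upstream of interferon, 2 were higher and 1 lower in Molm-14, 1 higher in MV4-11, and 4 higher and 1 lower in SKNO-1. MAVS, the adaptor of RIG-I and MDA5, was higher in all lines, by 0.68 (Molm-14), 0.27 (MV4-11) and 0.25 (SKNO-1), with an SE of 0.07 in each and adjusted p = 1.96e-06, 0.018 and 0.017. CGAS, which makes the messenger that activates STING, was lower in Molm-14 and higher in SKNO-1, with changes of -0.73 and 0.28 (adjusted p = 2.79e-05 and 0.0474). IRF5 was higher in Molm-14, with means of 27.6 CPM with DMSO and 39.0 CPM with the drug. It was also higher in SKNO-1, with means of 96.3 and 156.8 CPM. Of 6 feedback and ISG15-activating genes, 4 were higher in SKNO-1, 3 in Molm-14 and 1 in MV4-11. SOCS1, an inhibitor of JAK kinases, was higher in all lines, by 1.66 (Molm-14), 1.26 (MV4-11) and 1.08 (SKNO-1), with an SE of 0.17 in each and adjusted p = 1.36e-06, 9.95e-05 and 0.000175. SOCS3 and UBA7, the ISG15-activating enzyme, were higher in Molm-14 and SKNO-1. In Molm-14 their changes were 0.85 and 0.61 (adjusted p = 7.11e-05 and 0.000597).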

How the data were processed

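RNA from 18 cultures was isolated with a column kit, primed with oligo(dT) and, per the labels' protocols, read by DNA nanoball sequencing. STAR, limma, FastQC and the build GRCh38 are named in the submitters' processing notes. The read counter, the annotation, the strand setting and any filter are not given in the sources used here. The authors deposited 1 table of log2 values for 40184 Ensembl IDs, 40069 of which have a symbol. From the values, each deposited log2 value is the logarithm of reads plus 0.5, as CPM of an effective library, which is the read total times a scaling factor of 0.8903 to 1.1128. Undoing this gave whole reads, within 0.002, for 100% of the values under 200 reads. Reads carry no molecular identifiers, so read numbers and floors cover counting error only.

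limma 3.58.1 in R 4.3.3 (lmFit, eBayes with a trend, two-sided) was fitted once over all 18 libraries with 1 coefficient per group, with Benjamini-Hochberg adjustment of each comparison over its tested genes. A gene was beyond both other lines where it was called in its line and in both differences of response, in 1 direction. The method was tested on simulated data. Tables were joined in Python 3.11.15 with pandas 2.3.3, and figures were drawn with matplotlib 3.10.9.

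The members and lists were chosen with earlier results of these data known. Given library by library were members called in 1 direction in all 3 lines or in opposite directions in 2, the 6 largest rises and 3 largest falls per line among called members with a mean of at least 5 CPM in either group, and the 5 widest called differences per pair of lines. Members of a family or neighbouring pair could be set beside them. Pathway genes are given by counts, with values for those called in at least 2 lines or by over 1 on the log2 scale. 1 pathway gene is not reported here. The values of IFI27, STAT2, IRF1 and the other genes outside this rule were chosen after they were seen. Alternatives were a fit of the compared lines alone, eBayes with no trend, log2(CPM + 1), no filter, a 5 CPM minimum of the mean, quantile and median-ratio scaling, a replicate block, voom weights, the mitochondrial share as a covariate, leaving out the 4 libraries rich in mitochondrial reads, and leaving out each library in turn.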

Additional observations from a re-analysis of the deposited data

Results flagged for a closer look

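The following differences between lines in the response to RMC-4550 passed limma's test of the difference itself (Benjamini-Hochberg adjustment over all genes tested), and are the 5 widest for each pair of lines. Each is a log2 difference ± SE over 3 treated and 3 DMSO libraries per line.

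The response of Molm-14 was smaller than that of MV4-11 for CMPK2, at -3.04 ± 0.38 (SE, adjusted p = 0.000132). It was smaller for LAP3, at -2.35 ± 0.62 (SE, adjusted p = 0.0179), and for EIF2AK2, at -2.04 ± 0.24 (SE, adjusted p = 7.02e-05). PARP9 differed by -1.96 ± 0.23 (SE, adjusted p = 7.02e-05) and TRIM14 by -1.85 ± 0.40 (SE, adjusted p = 0.00645). For LAP3 and TRIM14 the MV4-11 groups overlap. The LAP3 call was lost on leaving out any 1 of 3 libraries of MV4-11.

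The response of SKNO-1 was larger than that of Molm-14 for DDX60, by 2.27 ± 0.34 (SE, adjusted p = 0.000508), and for PARP12, by 1.71 ± 0.27 (SE, adjusted p = 0.000821). It was larger for DDX60L, by 1.43 ± 0.13 (SE, adjusted p = 6.92e-06), for TRIM14, by 1.41 ± 0.40 (SE, adjusted p = 0.0359), and for CMPK2, by 1.36 ± 0.38 (SE, adjusted p = 0.0345). The TRIM14 call was lost on leaving out any 1 of 10 libraries and the CMPK2 call on leaving out any 1 of 9.

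The response of SKNO-1 was smaller than that of MV4-11 for IFI6, at -1.74 ± 0.26 (SE, adjusted p = 0.00186), and for CMPK2, at -1.68 ± 0.38 (SE, adjusted p = 0.034). UBE2L6 differed by -1.21 ± 0.27 (SE, adjusted p = 0.0338), PARP9 by -1.06 ± 0.23 (SE, adjusted p = 0.0246) and EIF2AK2 by -1.05 ± 0.24 (SE, adjusted p = 0.0325). The calls of CMPK2, UBE2L6, PARP9 and EIF2AK2 were lost on leaving out any 1 of 11, 11, 8 and 13 libraries, in that order. GM-CSF was in the SKNO-1 medium alone, and its part in these differences cannot be told apart from that of the line.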

How the results depend on the processing

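Among members given library by library, no call within a line was reversed under any alternative. The same held for the 5 widest called differences per pair of lines. Some uncalled Molm-14 values did change sign without the 4 libraries rich in mitochondrial reads. HERC5 went from -0.02 to 0.25, PLSCR1 from -0.14 to 0.12 and PARP12 from 0.01 to -0.02. The mitochondrial share as a covariate moved the most numbers of called members: Molm-14 24 higher and 4 lower, SKNO-1 1 lower, SKNO-1 against Molm-14 26 larger, SKNO-1 against MV4-11 3 larger and 16 smaller, DMSO level 21 lower in Molm-14 than in MV4-11, 23 higher in all 3 lines, and, beyond both other lines, 4 lower in Molm-14, 16 higher in MV4-11 and 3 in SKNO-1. Without the 4 libraries rich in mitochondrial reads, where a lone sample is assumed to vary like the other groups, the numbers were 23 and 5 in Molm-14, 1 lower in SKNO-1, 25 larger in SKNO-1 than in Molm-14, 3 larger than in MV4-11, 12 with a higher DMSO level in Molm-14 than in MV4-11, 22 in all 3 lines, and, beyond both, 5 lower in Molm-14 and 3 higher in SKNO-1. With log2(CPM + 1), and with the compared lines alone in the fit, 2 were lower in Molm-14 beyond both, and the latter gave 1 lower in SKNO-1. Quantile normalization gave 0 smaller in SKNO-1 than in Molm-14 by limma. The cause was not tested. Shares over all genes are given above for some of these alternatives only, so these counts are not read as results about the members.

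No filter, eBayes without a trend and the replicate block each gave 5 smaller responses in SKNO-1 than in MV4-11, 0 members lower in Molm-14 beyond both and 4 higher in MV4-11 beyond both. The replicate block changed no other count by over 1.5 times. Same-numbered libraries deviated with correlations from -0.05 to 0.00 in Molm-14, -0.40 to 0.59 in MV4-11 and 0.01 to 0.13 in SKNO-1. The main fit did not pair them. These correlations cannot exclude a pairing, since libraries of Molm-14 and MV4-11 also differed in mitochondrial share.

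Leaving out each library in turn gave 14 to 18 higher and 1 to 4 lower members in Molm-14, 36 to 45 higher and 0 lower in MV4-11, and 29 to 37 higher and 0 to 1 lower in SKNO-1. In all 3 lines 13 to 17 were higher. Larger and smaller responses numbered 0 to 1 and 26 to 34 (Molm-14 against MV4-11), 8 to 16 and 2 to 3 (SKNO-1 against Molm-14), and 1 to 2 and 3 to 18 (SKNO-1 against MV4-11). Higher and lower DMSO levels numbered 15 to 23 and 12 to 14, 18 to 20 and 16 to 17, and 14 to 24 and 7 to 10, in that order. Beyond both other lines, 0 to 1 were higher and 0 to 2 lower in Molm-14, 2 to 17 higher in MV4-11 and 1 to 2 in SKNO-1. A fit of the compared lines alone gained and lost calls of members, and gave 32 higher in MV4-11, with 30 of the 44 among them. At this depth, members under 1 CPM could not be tested.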
